A study of Homo sapiens with 8 samples.

Results

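Replication origins that lie at the 5′ ends of protein-coding genes were described in HCT116 p53-/- colon cancer cells (WT) and in the *ORC1Δ*, *ORC2Δ*, and *ORC5Δ* lines made from them by CRISPR–Cas9. All 4 lines lack p53, and the labels name WT and the 3 knockout genotypes only. The origins come from SNS-seq, which sequences short nascent strands, the small pieces of new DNA that flank a place where replication has just begun, with 2 libraries per line. A line stands for the cells that survived the loss of the gene, and each count table holds 1 merged column per line, so no test between lines was possible and every difference below is a description of these cells. An origin was taken when it overlapped the 500 bp either side of the start of a protein-coding gene on chromosomes 1 to 22 (GENCODE release 44, hg38), the start being the 5′ end of the gene record on its own strand. This gave 2927 of 42421 origins in the table of WT and *ORC1Δ*, 3272 of 44447 in that of WT and *ORC2Δ*, and 3342 of 46722 in that of WT and *ORC5Δ*. They are called start origins below, and the other origins on chromosomes 1 to 22 are called origins elsewhere.

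Replication begins where the origin recognition complex, CDC6, and CDT1 load the MCM2–7 helicase on DNA. Human origins have no single defining sequence, but mapped origins are often found at the starts of genes, where CpG islands, G-quadruplexes, and open chromatin are common. Many gene starts come in pairs: the start of a gene on one strand lies next to that of a gene on the other, so that transcription leaves in both directions. Here a start was called divergent when an opposite-strand protein-coding start lay within 1000 bp, and single otherwise. Of 19111 starts, 16515 were single and 2596 divergent. Of the divergent starts, 1652 faced away from a partner with a gap between them, and in 944 the 5′ ends of the genes overlapped.

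A few sequences from gene starts and start origins are shown. The first set gives the bases between the starts of 2 divergent pairs that held an origin in WT, with runs of 3 or more G or C in capitals. The LIG1 and ZSWIM9 starts are 77 bp apart, and the bases between them (hg38 chr19:48170604-48170679, plus strand) are 81.6% G or C with 8 runs of G. The PSMD13 and SIRT3 starts are 35 bp apart (hg38 chr11:236932-236965, shown on the minus strand) and the bases between them are 88.2% G or C. No annotated exon overlaps either stretch. The second stretch lies beside its origin, which spans chr11:235990-236776 in the *ORC1Δ* table.
LIG1 and ZSWIM9: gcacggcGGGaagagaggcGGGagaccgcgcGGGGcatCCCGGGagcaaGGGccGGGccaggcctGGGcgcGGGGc
PSMD13 and SIRT3: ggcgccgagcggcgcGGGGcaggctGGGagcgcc

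The second set gives the 150 bases before 3 single starts, with the GC box GGGCGG, the site of Sp1-like factors, in capitals on either strand. CDT1 (chr16:88803639-88803788, plus strand) had an origin in all 4 lists, and MCM5 (chr22:35399984-35400133, plus strand) had none, the nearest WT origin being 5766 bp away. WNT5B (chr12:1529741-1529890, plus strand) had a start origin with fewer scaled reads in the 3 knockout lines than in WT. A GC box stood in CDT1 and MCM5 and not in WNT5B, so this motif did not divide these 3 starts by whether they held an origin. The CDT1 stretch held 24 CpG, that of MCM5 17, and that of WNT5B 7.
CDT1: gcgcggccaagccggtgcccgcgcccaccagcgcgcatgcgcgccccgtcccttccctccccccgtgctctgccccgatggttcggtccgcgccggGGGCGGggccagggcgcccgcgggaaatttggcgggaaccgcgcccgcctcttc
MCM5: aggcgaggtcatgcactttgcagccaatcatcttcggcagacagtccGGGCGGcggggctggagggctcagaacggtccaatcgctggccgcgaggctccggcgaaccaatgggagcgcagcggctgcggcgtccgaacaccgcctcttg
WNT5B: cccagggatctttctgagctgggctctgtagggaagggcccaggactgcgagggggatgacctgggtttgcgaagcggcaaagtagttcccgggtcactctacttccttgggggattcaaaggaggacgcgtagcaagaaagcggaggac

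The third set gives the central 200 bases of 2 of the single-promoter origins that ranked highest over WT by the smallest log2 of the knockout lines. Stretches where a unit of 2 or 3 bases recurs at least 3 times in a row are in capitals. The EBI3 origin (chr19:4228667-4228866, plus strand) is built of CT units with 80 C and 20 G, and that of VANGL1 (chr1:115641385-115641584, plus strand) holds GT units with 78 G and 18 C. Both lie wholly upstream of the start.
EBI3: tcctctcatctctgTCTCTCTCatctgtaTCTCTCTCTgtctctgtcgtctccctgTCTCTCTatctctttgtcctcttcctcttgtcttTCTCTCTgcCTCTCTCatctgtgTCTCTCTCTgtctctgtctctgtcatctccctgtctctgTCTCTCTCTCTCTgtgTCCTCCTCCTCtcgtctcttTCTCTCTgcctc
VANGL1: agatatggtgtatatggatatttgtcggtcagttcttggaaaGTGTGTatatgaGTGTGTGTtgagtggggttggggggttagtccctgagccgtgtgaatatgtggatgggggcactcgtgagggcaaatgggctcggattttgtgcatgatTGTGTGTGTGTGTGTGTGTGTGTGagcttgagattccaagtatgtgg

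The tables held 6416892 to 8523971 reads per line, and each start origin had at least 16 WT and 22 knockout reads. Reads were scaled to 1000000 reads in the origins of a table (RPM), and differences are given as log2 of knockout RPM over WT RPM. Intervals of a single origin are 95% Clopper–Pearson, those of a share are 95% Wilson, and those of a median are 95% order-statistic intervals. They cover counting error or the choice of starts and origins only, not the spread between cultures, and starts of one pair share origins. In *ORC2Δ* cells the first 20 Mb of chromosome 6 stood low as a block, with a median log2 of -0.96 over 205 origins elsewhere. The 11 start origins there had a median of -0.79 and 7 were down, and the part that this block plays in the *ORC2Δ* counts was tested only by leaving out chromosomes 2 and 6. The first 20 Mb of chromosome 2 stood high in this line, with a median of 0.39 and 134 up of 527 origins elsewhere, and the 18 start origins there had a median of 0.23 with 2 up. Without both chromosomes 22 start origins were up and 74 down in *ORC2Δ* cells, in place of 33 and 87.

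Of the 19111 starts, 4021 had an origin in the list of at least 1 line and 1709 had one in all 4 lists. These are 42.5% of the starts with any origin, 42.4% for single and 42.8% for divergent starts. In WT, 2726 starts (14.3%, 95% interval 13.8 to 14.8) had an origin. The share was 12.01% in *ORC1Δ* cells (2296 starts), 15.9% in *ORC2Δ* cells (3038), and 16.6% in *ORC5Δ* cells (3165). The lists differ in length, and start origins were 8.52% of the 29908 origins of the WT list, 6.47% of 33245 in *ORC1Δ*, 7.62% of 37369 in *ORC2Δ*, and 7.26% of 40918 in *ORC5Δ*. So the *ORC1Δ* list was longer than that of WT and yet had fewer origins at gene starts (2150 against 2547), while the *ORC2Δ* and *ORC5Δ* lists had more (2847 and 2971).

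Divergent starts held an origin more often than single starts. In WT, 475 of 2596 divergent starts (18.3%, 16.9 to 19.8) and 2251 of 16515 single starts (13.6%, 13.1 to 14.2) had one. The same order was seen in *ORC1Δ* cells (14.9% and 11.6%), *ORC2Δ* cells (20.5% and 15.2%), and *ORC5Δ* cells (21.2% and 15.8%). Divergent starts are also richer in CpG. Of divergent starts, 85.8% were CpG-rich (at least 50% GC and a ratio of observed to expected CpG of at least 0.6 in the 500 bp either side), against 54.2% of single starts. Among CpG-rich starts the WT shares were 18.3% for divergent and 18.2% for single starts. Among the others they were 18.2% (67 of 369) and 8.20% (620 of 7561).

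The share rose with the GC content of the window in both classes. For single starts in WT it was 0.741% below 45% GC (18 of 2430 starts), 3.70% at 45 to 50%, 7.53% at 50 to 55%, 12.004% at 55 to 60%, 17.1% at 60 to 65%, 22.04% at 65 to 70%, and 29.3% at 70% or more (631 of 2154). For divergent starts it was 0 of 29 in the lowest class, where the interval reaches 11.7%, and 31.1% in the highest (102 of 328). The intervals of the 2 kinds of promoter overlapped in 6 of 7 classes, and were apart at 50 to 55% GC, with 12.7% (9.56 to 16.8) for divergent and 7.53% (6.48 to 8.73) for single starts. In *ORC1Δ* cells the share was close to that of WT where GC was low (0.864% below 45%) and lower where it was high: 22.7% of single and 24.1% of divergent starts in the highest class.

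**Figure D1:**
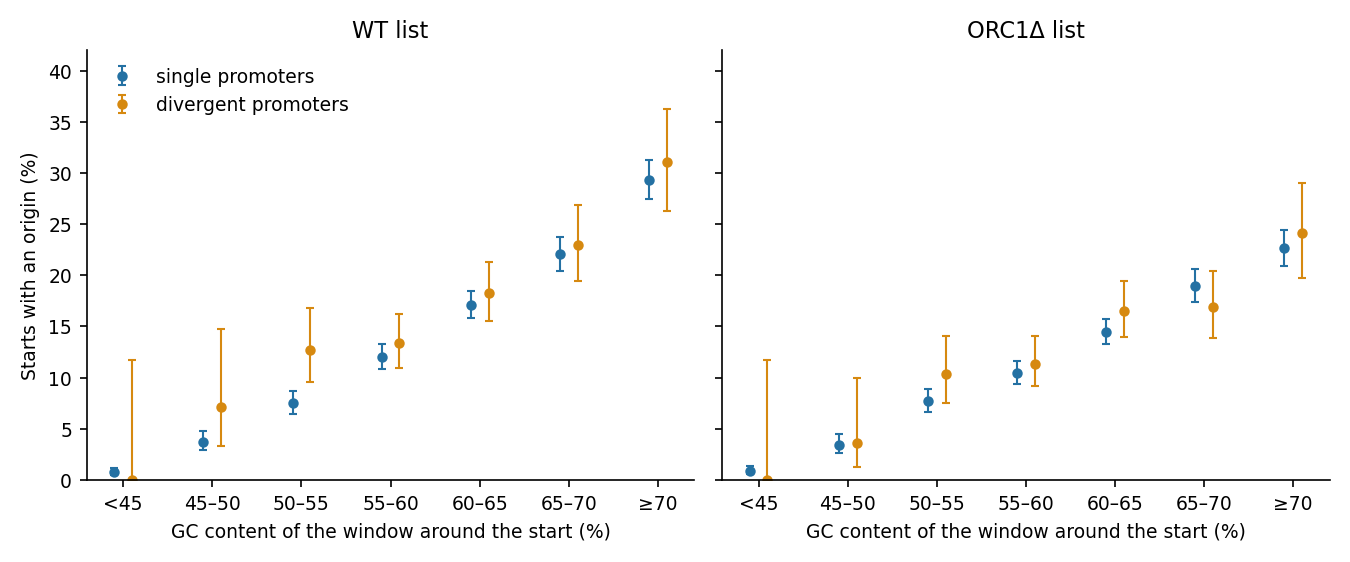
Share of gene starts with an origin (y axis, %) by the GC content of the 500 bp either side of the start (x axis, %), for single (blue) and divergent (orange) promoters, in the WT list (left) and the *ORC1Δ* list (right). Bars are 95% Wilson intervals. The share climbs with GC in both panels, from 0.741% to 29.3% for single promoters in WT, and the *ORC1Δ* share is lower than that of WT in the top class (22.7%).

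The share of divergent starts with an origin differed with the distance between the paired starts. In WT it was 16.1% for gaps of 0 to 100 bp (104 of 647), 14.5% for 100 to 200 bp (interval 11.6 to 17.9), 21.4% for 200 to 500 bp, and 28.9% for 500 to 1000 bp (39 of 135, interval 21.9 to 37.0). For overlapping starts it was 17.4% with an overlap below 500 bp and 21.7% with a longer one. Whether GC content differed between these classes was not tested. Counted as pairs, 872 pairs had a gap between the starts and 480 overlapped. Among the pairs with a gap, 177 had an origin in WT (20.3%). In 144 of those 177 pairs both starts had one within 500 bp, and in 40 (22.6%) a single origin covered both starts. The windows of paired starts overlap, so 1 origin can count for both, and the first of these counts is set in part by the window. In *ORC1Δ* cells 146 pairs with a gap had an origin, 113 of them at both starts, and 29 were covered by a single origin. More than 1 origin in the window of a start was uncommon in every list, from 3.56% of the single starts with an origin in *ORC1Δ* cells to 5.70% of the divergent ones in the same cells.

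Origins lay on both sides of the start, but not evenly. At single promoters in WT, the share of starts covered by an origin was 1.08% at 2000 bp upstream, 5.44% at 250 bp upstream, and 5.72% at the start itself. It then rose to its highest value of 7.32% at 485 bp inside the gene, and was 1.72% at 2000 bp. At divergent promoters there were peaks on both sides, 8.17% at 293 bp upstream and 8.74% at 346 bp downstream, with 7.24% at the start. Both starts of a pair are counted, each on its own strand. An origin downstream of one start can thus also count as upstream of its partner, and the 2 peaks partly mirror each other. *ORC1Δ* cells had a dip at the start at both kinds of promoter. For single promoters the coverage was 4.33% at 273 bp upstream, fell to 3.80% at 24 bp downstream, and rose to 6.10% at 456 bp downstream. For divergent promoters it was 6.47% at 317 bp upstream, 5.05% at 40 bp upstream, and 7.01% at 458 bp downstream. In *ORC2Δ* and *ORC5Δ* cells the curves had the shape of WT at a higher level, with 8.42% and 8.54% as the highest values at single promoters.

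**Figure D2:**
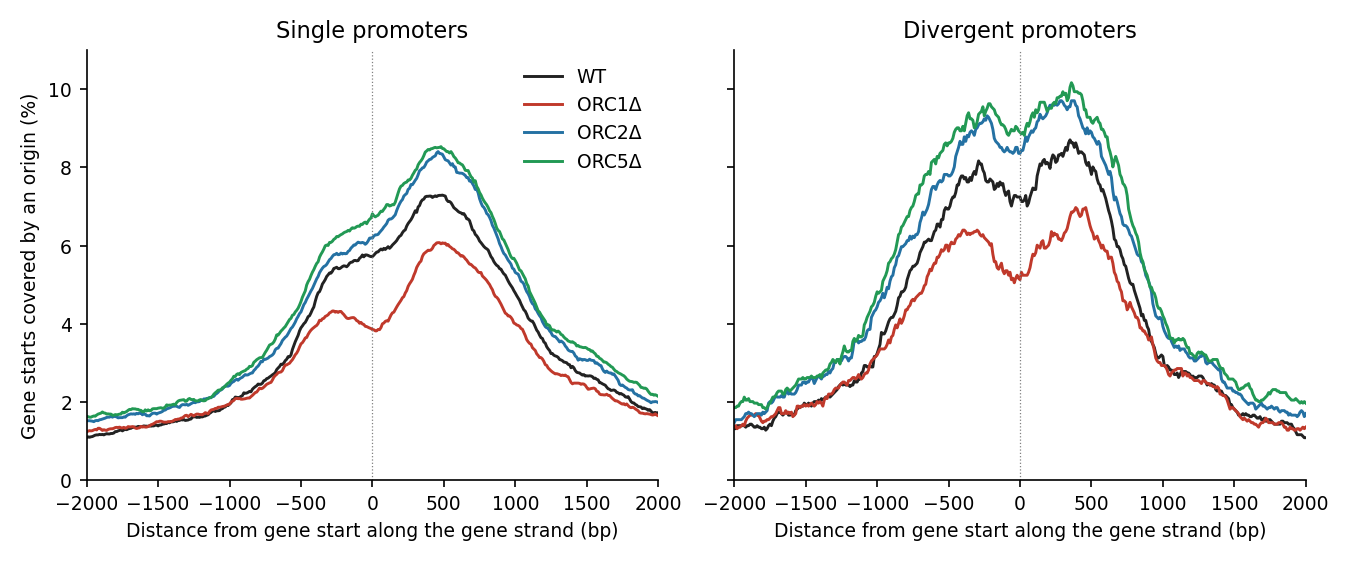
Share of gene starts covered by an origin (y axis, %) at each distance from the start (x axis, bp along the gene strand, negative is upstream), for single (left) and divergent (right) promoters in the 4 lists. Single promoters have their highest coverage inside the gene (7.32% in WT at 485 bp) and divergent promoters have peaks on both sides, and the *ORC1Δ* curve falls to 3.80% near single starts. Both starts of a divergent pair are counted, so the peaks on its 2 sides partly mirror each other.

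Counted by origin, 1044 of the 2618 single-promoter origins in the table of WT and *ORC1Δ* covered the start (39.9%), 1048 lay downstream of it (40.0%), and 526 upstream (20.1%). Of the 309 divergent-promoter origins, 158 covered a start (51.1%). Such an origin can lie near both starts of a pair, so this share and that of single-promoter origins are not measured alike. The origins in the gene had a different strand bias from those before it. GC skew is the excess of G over C on a strand divided by their sum, and is given here on the gene's own strand. Single-promoter origins downstream of the start had a median skew of 0.21, and 62.2% were above 0. Upstream origins had a median of -0.14, and 45.1% were above 0. A G-quadruplex motif was found on the gene strand in 52.2% and on the other strand in 32.5% of the downstream origins, while in the upstream origins the shares were 32.5% and 43.2%. The sign of the median thus differed between the sides of the start. This is not particular to origins. Over the 500 bp on each side, single starts with no origin in any line had median skews of -0.006 upstream and 0.040 downstream. Single starts with a WT origin had -0.013 and 0.076.

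Start origins were larger and had more reads than origins elsewhere. In the table of WT and *ORC1Δ* the median start origin had 170 WT reads over 630 bp, and the median origin elsewhere 111 reads over 528 bp. Per kb the medians were 43.4 and 33.4 RPM in WT. Single and divergent promoters were alike in this respect, with medians of 171 and 161 WT reads and 43.6 and 40.9 RPM per kb. Start origins were 7.00% of the origins of chromosomes 1 to 22 in that table and held 10.5% of the WT reads and 9.18% of the *ORC1Δ* reads there. The shares of reads were 10.98% and 10.83% for WT and *ORC2Δ*, and 10.7% and 10.5% for WT and *ORC5Δ*.

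Their composition also set start origins apart. The median GC content was 63.6% against 51.8% elsewhere, the median ratio of observed to expected CpG 0.675 against 0.240, and a G-quadruplex motif was found in 76.8% against 46.7%. The median absolute GC skew, the size of the skew on whichever strand is richer in G, was lower at starts, 0.267 against 0.362. Divergent-promoter origins had slightly less GC than single-promoter origins (62.4% and 63.8%) and a G-quadruplex motif less often (70.6% and 77.5%). Their median absolute skews were 0.268 and 0.267. The shares with a G-quadruplex motif count any match within an origin, and the sets were not matched for width or GC content.

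In the 300 bases from 250 before to 50 after a start, motifs were searched by their letters on both strands. GGGCGG was found in 52.6% of all 19111 promoters, in 74.3% of single promoters with a WT origin, and in 44.9% of single promoters without an origin in any line. TATAAA, the TATA box, was found in 10.9% of all promoters and went the other way, with 5.46% and 13.5%. Among CpG-rich promoters the gaps were smaller, with 83.5% and 72.4% for the GC box and 4.51% and 5.64% for the TATA box. Among the others they were not, with 48.6% and 17.7% for the GC box and 7.42% and 20.5% for the TATA box. The CCAAT box was found in 33.3% and 35.9% of the single promoters (35.6% of all), and CACGTG, the E-box, in 9.51% and 7.64% (8.24% of all). At divergent promoters CCGGAA, the core of ETS factor sites, was found in 31.6% of those with a WT origin and 36.6% of those without, against 19.6% of all promoters.

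In *ORC1Δ* cells start origins had fewer scaled reads than in WT. The median log2 was -0.23 (-0.24 to -0.22) over 2927 start origins, and 80.1% were below 0, while origins elsewhere had a median of 0.005. At 1.5-fold, 337 start origins were down (11.5%) and 26 were up (0.888%). Over all 41785 origins of chromosomes 1 to 22 in this table, 3.95% were down and 7.00% up, so starts had more of the first and fewer of the second than the table as a whole. Single-promoter origins had a median of -0.24 with 316 down (12.1%), and divergent-promoter origins a median of -0.19 (-0.22 to -0.16) with 21 down (6.80%).

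In *ORC2Δ* cells the median of 3272 start origins was -0.04 (-0.05 to -0.03), the same to 2 decimals as that of origins elsewhere. Of these, 87 were down (2.66%) and 33 up (1.009%), against 3.61% and 4.62% of all 43698 origins. Scaling with edgeR TMM factors took it to 0.0011, and since this adds 0.038 to the log2 of every origin, it leaves the position of start origins relative to the others as it was. In *ORC5Δ* cells the median of 3342 start origins was -0.04 (-0.04 to -0.03), slightly below the -0.0009 (-0.003 to 0.002) of origins elsewhere. Of these start origins, 14 were down (0.419%) and 11 up (0.329%), against 0.682% and 2.05% of all 46021 origins. In both lines the share up was below that of the table. Single and divergent promoters had medians of -0.04 and -0.02 in *ORC2Δ* cells and of -0.04 and -0.02 in *ORC5Δ* cells, and both divergent intervals include 0. WT reads enter all 3 comparisons, so these are not independent of each other.

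The difference in *ORC1Δ* cells followed the GC content of the origin, at starts and elsewhere. Start origins with 70% GC or more had a median log2 of -0.43 at single and -0.41 at divergent promoters, and origins elsewhere with as much GC had -0.38. In the class of 55 to 60% GC the medians were -0.10, -0.09, and -0.10. At 45 to 50% GC they were 0.06, 0.14, and 0.16, and the 27 single-promoter origins below 45% GC had 0.16 beside 0.22 elsewhere. With the running median of the log2 over GC content taken out, start origins had a median of -0.002 (-0.01 to 0.007) in *ORC1Δ* cells. The same value was 0.02 for *ORC2Δ* and 0.004 for *ORC5Δ*. This trend was fitted over all origins, and start origins were 695 of those with 70% GC or more, beside 652 elsewhere. With a trend fitted on origins elsewhere only, an alternative chosen after seeing the data, the medians were -0.009, 0.03, and 0.005. The match with origins elsewhere was not complete in each class of *ORC1Δ* origins. At 45 to 50% GC the 115 start origins had a median of 0.07 with 4.35% up, beside 0.16 with 11.1% up elsewhere. The lower median over all start origins in *ORC1Δ* cells went with their higher GC content.

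**Figure D3:**
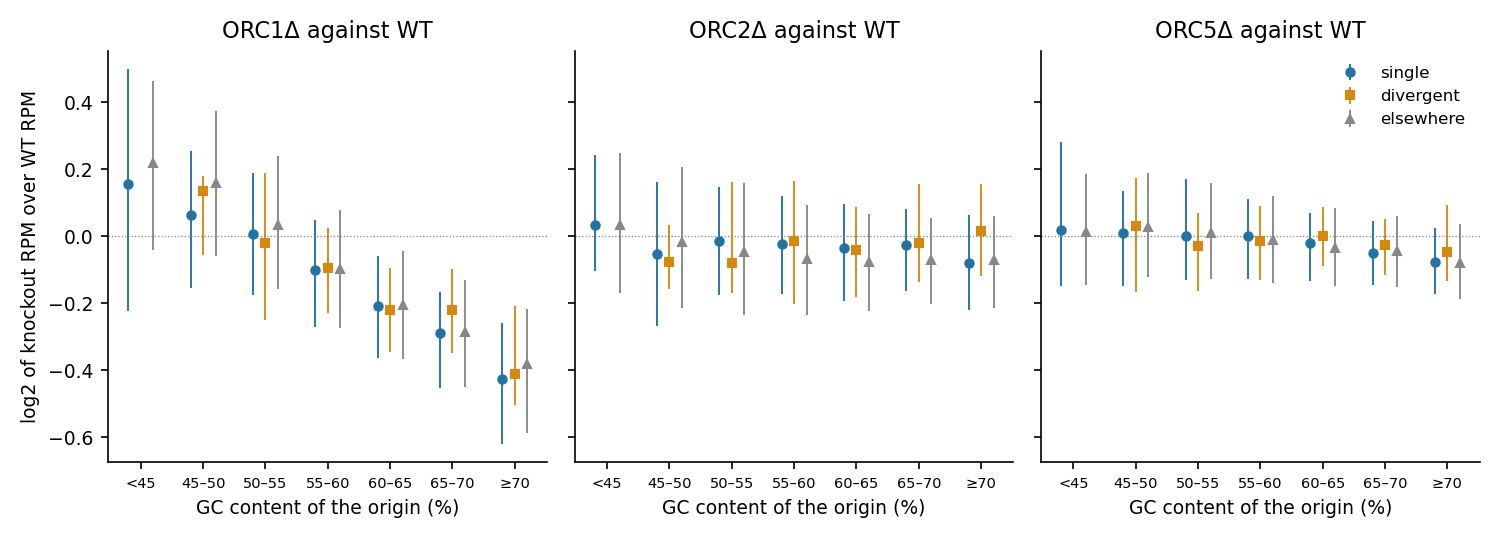
Log2 of knockout RPM over WT RPM (y axis) by GC content of the origin (x axis, %) for single-promoter (blue circles), divergent-promoter (orange squares), and other origins (grey triangles), 1 panel per knockout line. Points are medians, bars run from the first to the third quartile, and classes with under 15 origins are left out. In *ORC1Δ* the 3 kinds of origin fall together to medians of -0.43, -0.41, and -0.38 in the top class, while *ORC2Δ* and *ORC5Δ* stay near 0.

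Median log2 values in *ORC1Δ* cells also differed with where an origin lay. Origins covering a start had a median of -0.29 with 183 of 1202 down (15.2%), those upstream -0.17 with 46 of 574 down, and those downstream -0.20 with 108 of 1151 down. Their GC content was 66.1%, 59.2%, and 63.1%. With the GC trend removed the medians were -0.03, -0.01, and 0.02. The WT and *ORC1Δ* lists were called on the same reads, so the values by list membership are set in part by that choice and are given as a description. Of the start origins, 1836 overlapped an origin of both lists, with a median of 221.5 WT and 198 *ORC1Δ* reads. The 725 that overlapped the WT list only had lower medians, 113 WT and 86 *ORC1Δ* reads, and 233 of them were down (32.1%). The 366 that overlapped the *ORC1Δ* list only had 117.5 and 123.5 reads, and 24 were up. Start origins absent from the *ORC1Δ* list thus still had *ORC1Δ* reads.

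Median log2 values were higher in the classes of higher GC skew in each line. Start origins with an absolute skew below 0.2 had median log2 values of -0.35, -0.08, and -0.05 in the *ORC1Δ*, *ORC2Δ*, and *ORC5Δ* tables. Those with a skew of 0.4 to 0.6 had 0.03, 0.07, and 0.03. Those at 0.6 or above were few, 35, 27, and 26 origins, and had 0.30 (0.13 to 0.56), 0.33 (0.18 to 0.67), and 0.19 (-0.03 to 0.36). Of the 35, 11 were up in *ORC1Δ* cells (31.4%). These most skewed start origins had a median GC content of 53.1% in the *ORC1Δ* table, and with the GC trend removed their median there was still 0.30. In the other classes of the *ORC1Δ* table removing the trend changed the medians, from -0.35 to -0.10 below 0.2, from -0.23 to 0.002 at 0.2 to 0.4, and from 0.03 to 0.14 at 0.4 to 0.6.

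Repetitive sequence was less common at starts than elsewhere. It was measured as the number of distinct 6-base words among the 295 read along the central 300 bases. Of start origins in the *ORC1Δ* table, 9.09% had fewer than 200 distinct words, against 16.4% of origins elsewhere. Of the 26 start origins up in *ORC1Δ* cells 50.0% had fewer than 200, as had 42.4% of the 33 up in *ORC2Δ* cells, while 5.04% of those down in *ORC1Δ* cells did. Among the 103 start origins with fewer than 150 distinct words, 10 were up in *ORC1Δ* cells (9.71%) and none was down, and among the 1571 with 250 or more, 5 were up (0.318%) and 137 down. In *ORC2Δ* cells 10 of 105 with fewer than 150 were up and 3 down. In *ORC5Δ* cells 3 of 99 were up, and their median log2 was -0.035, beside -0.033 for those with 250 or more. Elsewhere, 32.2% of the 4150 origins with fewer than 150 words were up in *ORC1Δ* cells, so repetitive origins elsewhere were up in a larger share than repetitive start origins. How reads that map to several places were handled is not given in the sources used here, and its part in these values was not tested.

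**Figure D4:**
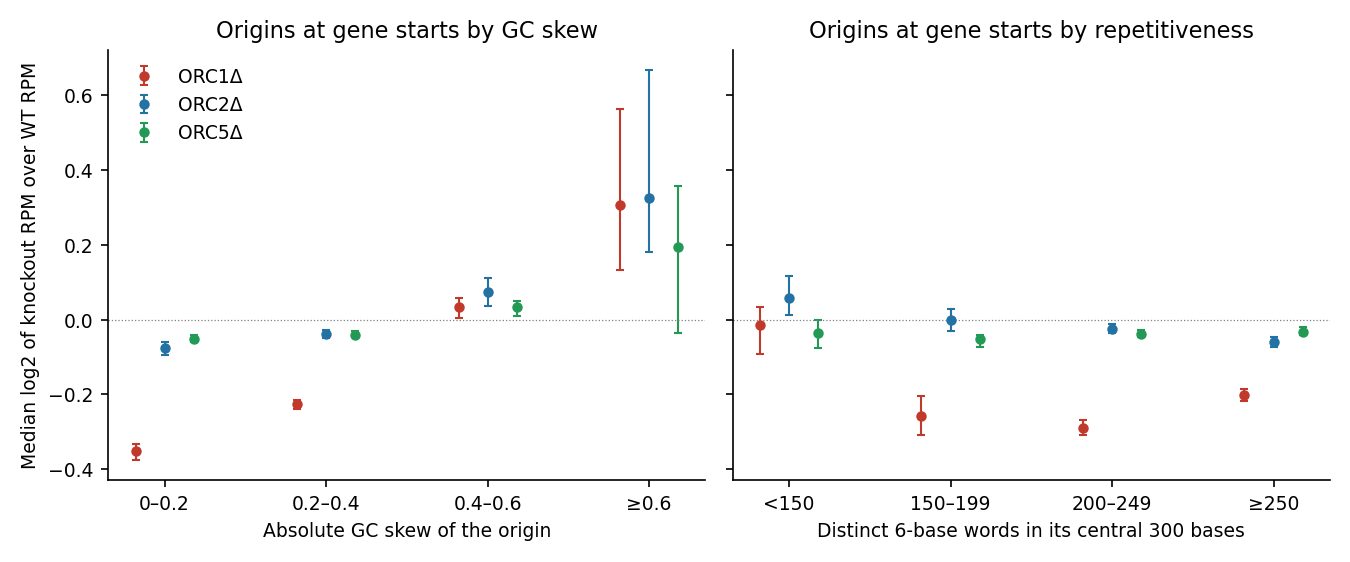
Median log2 of knockout RPM over WT RPM (y axis) of start origins by absolute GC skew (left) and by the number of distinct 6-base words in the central 300 bases (right; fewer words means more repetitive), for *ORC1Δ* (red), *ORC2Δ* (blue), and *ORC5Δ* (green). Bars are 95% order-statistic intervals of the median. All 3 lines rise with skew, to 0.30, 0.33, and 0.19 in the top class.

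The start origins with the most WT reads were wide. That of ZNF467, a zinc finger protein gene, at chr7:149771512-149773900 had 1499 WT and 1349 *ORC1Δ* reads, or 233.6 and 201.6 RPM, and 205.4 and 192.2 RPM in *ORC2Δ* and *ORC5Δ* cells. Its log2 values were -0.21, -0.13, and -0.18. That of ZNF846 had 211.2 RPM in WT and 181.6 in *ORC1Δ* cells. MAP2K2, which encodes the kinase MEK2, had 198.2 and 199.7, NXNL2 191.2 and 190.7, and PHF23 189.2 and 168.9 RPM. None of the 5 was called up or down in any line. The NXNL2 start had no origin of the *ORC1Δ* list within 500 bp, although 1276 *ORC1Δ* reads were counted over its whole origin. This origin reaches 1295 bp into the gene, so the window would miss a listed origin further in. The 5 origins span 1316 to 2557 bp, and the ZNF846, MAP2K2, and PHF23 origins lie wholly inside the gene. Several are repetitive: NXNL2 had 148, ZNF846 151, and MAP2K2 160 distinct words.

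At divergent promoters the strongest origin lay between and over LRRC42 and IFT25, an intraflagellar transport gene, at chr1:53945241-53947447. It had 1294 WT reads in the *ORC1Δ* table (201.7 RPM) and 195.9, 203.5, and 189.3 RPM in *ORC1Δ*, *ORC2Δ*, and *ORC5Δ* cells, and covers both starts, which are 386 bp apart. The origin at KIFC2, a kinesin gene, had 128.9 RPM in WT and 120.9 in *ORC1Δ* cells. The next was that of ZSWIM9 and LIG1, described with the replication genes. The origin at FAM228B and SF3B6, a splicing factor gene, had 106.7 and 97.3 RPM. Within 500 bp of the FAM228B start there was an origin in the 3 knockout lists but not in that of WT, although 685 WT reads were counted over the whole origin. It reaches 839 bp past this start, so the window would miss a WT list origin further in. The origin at PRKAR1B and DNAAF5, whose 5′ ends overlap, was the only one of the 5 that was down: it had 660 WT and 446 *ORC1Δ* reads (log2 -0.63, -0.80 to -0.45), but -0.009 in *ORC2Δ* and -0.10 in *ORC5Δ* cells.

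Ranked by the smallest log2 of the 3 lines, the highest single-promoter origins were those of TMEM114, VANGL1, and EBI3. They are not the extremes of each line: with no read minimum, single-promoter origins reached 2.61 in *ORC1Δ* cells. TMEM114 had 101 WT and 255 *ORC1Δ* reads, 100 and 277 in the *ORC2Δ* table, and 101 and 253 in the *ORC5Δ* table. Its log2 values were 1.28 (0.94 to 1.62), 1.24 (0.90 to 1.58), and 1.02 (0.68 to 1.36). EBI3, which encodes a subunit of the cytokines IL-27 and IL-35, had 0.96, 0.95, and 0.59, and VANGL1, a planar cell polarity gene, had 1.15, 0.77, and 0.72 on 42 to 45 WT reads. TMEM114 had 73 and EBI3 91 distinct words, and VANGL1 237. At divergent promoters the highest were ZNF790 and its neighbour ENSG00000291239 (0.92, 0.62, and 0.51), PMEL, a melanosome protein gene (0.64, 0.45, and 0.58), and TLN1, the talin gene (0.32, 0.42, and 0.30). The *ORC5Δ* interval of the first and the *ORC2Δ* interval of the second include 0.

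Ranked in the same way, by the smallest absolute log2, the lowest single-promoter origins were those of WNT5B, DNHD1, and LIM2. In *ORC1Δ* cells alone, with no read minimum, single-promoter origins went down to -2.05. WNT5B, a Wnt ligand gene, had 128 WT reads in each table and 49, 88, and 100 reads in *ORC1Δ*, *ORC2Δ*, and *ORC5Δ* cells, with log2 values of -1.45 (-1.95 to -0.96), -0.77, and -0.67. Its start had an origin in the WT, *ORC2Δ*, and *ORC5Δ* lists. LIM2, a lens membrane protein gene, had 100 WT reads and 65, 57, and 75 in the knockout lines (-0.68, -1.04, and -0.72). DNHD1 had 98 and 63, 62, and 71 reads (-0.70, -0.89, and -0.77), and an origin at its start in the WT list only. At divergent promoters, UTP18, a ribosome biogenesis gene, and MBTD1 shared an origin with 119 WT reads and 48, 100, and 90 knockout reads (-1.37, -0.48, and -0.71). OTOP2 and USH1G shared one with 193 and 110, 173, and 165 reads (-0.87, -0.39, and -0.54). DDT and GSTT2 shared one with 91 and 48, 68, and 79 reads (-0.98, -0.65, and -0.51). GSTT2 and DDT have near-identical copies close by, so how reads were assigned there is uncertain. These origins were picked for their values, which are given as a description.

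**Figure D5:**
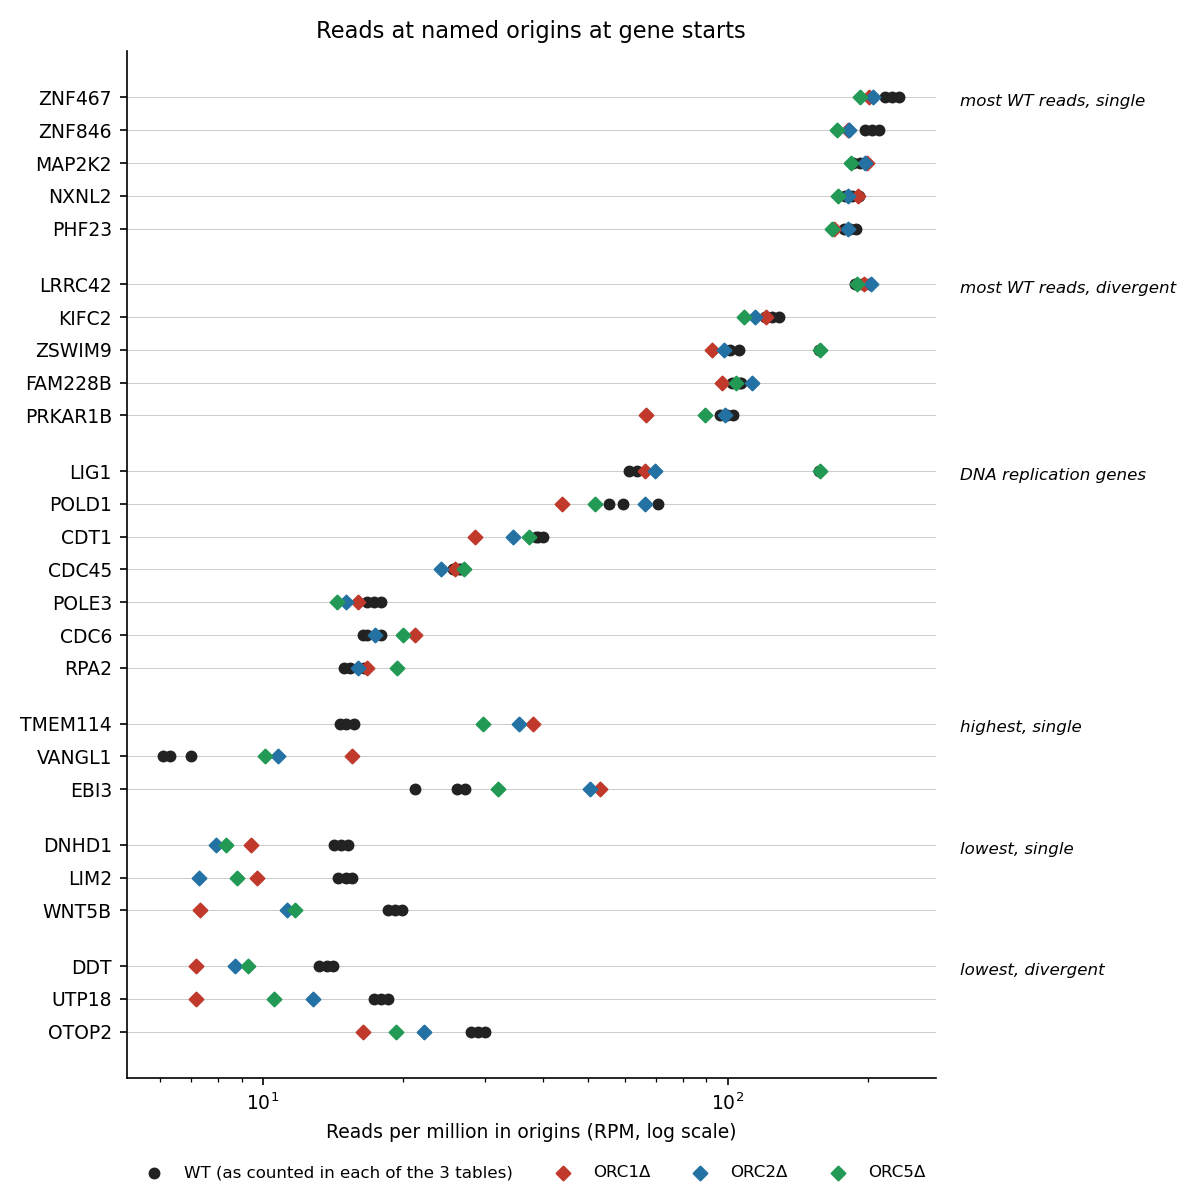
Scaled reads (RPM; x axis, log scale) of named start origins (rows, in groups named at the right) in WT (black circles, 1 per count table) and in *ORC1Δ*, *ORC2Δ*, and *ORC5Δ* cells (diamonds). The origins with the most reads lie close together in all lines except PRKAR1B in *ORC1Δ* cells, the highest ones (TMEM114 at 38.1 RPM in *ORC1Δ* and 15.7 in WT) have all diamonds to the right of WT, and the lowest ones have them to the left. In the *ORC5Δ* table the ZSWIM9 and LIG1 origins are joined and appear as the same point.

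Genes of the replication machinery had an origin at the start at a share whose interval holds that of all starts. Of 58 genes of a DNA replication list, 7 had one in WT (12.1%, 5.97 to 22.9), beside 14.3% of all starts. The *ORC1Δ* list also had 7, that of *ORC2Δ* 5, and that of *ORC5Δ* 8. None of ORC1, ORC2, ORC3, ORC4, ORC5, or ORC6 and none of MCM2 to MCM7 had an origin within 500 bp of its start in any line, as was the case for 15090 of all 19111 starts. CDC6 and CDT1, the other licensing factors, had one in all 4. The WT origin nearest to the ORC1 start was 4358 bp away, that nearest to MCM7 675 bp away, and that nearest to ORC4 483070 bp away.

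The strongest of them lay at LIG1, the ligase that joins Okazaki fragments, and ZSWIM9. In the tables of *ORC1Δ* and *ORC2Δ* there were 2 origins. In that of *ORC1Δ*, 1 covered both starts at chr19:48170398-48171486 with 677 WT and 618 *ORC1Δ* reads (log2 -0.19). The other lay inside LIG1 at chr19:48169403-48170289 with 410 and 443 reads (0.05). In the *ORC5Δ* table they are joined, with 1079 WT and 1347 *ORC5Δ* reads (0.01). Neither start had an origin of the *ORC2Δ* list within 500 bp, although the 2 origins, which reach past this window, had 768 and 544 *ORC2Δ* reads. POLD1, the catalytic subunit of DNA polymerase delta, had 381 WT and 294 *ORC1Δ* reads (-0.43, -0.66 to -0.21), and -0.09 and -0.10 in the other lines. CDT1 had 257 WT and 191 *ORC1Δ* reads (-0.49, -0.77 to -0.21), -0.18 in *ORC2Δ*, and -0.05 in *ORC5Δ* cells, and its origin is 72.8% GC. CDC6, at 58.5% GC, had 115 WT and 142 *ORC1Δ* reads (0.24), 0.09, and 0.26. All 3 CDC6 intervals include 0. CDC45, a part of the replicative helicase, POLE3, a subunit of polymerase epsilon, and RPA2, of the single-strand binding complex, had 171, 115, and 106 WT reads, and all 3 had log2 intervals that include 0 in every line. The list has 9, 8, and 8 origins in the *ORC1Δ*, *ORC2Δ*, and *ORC5Δ* tables, and none was up or down at 1.5-fold. Over all start origins 11.5%, 2.66%, and 0.419% were down and 0.888%, 1.009%, and 0.329% up.

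Among other gene groups, that of the olfactory receptors alone had a share in WT whose interval lay apart from that of all starts, and differences between groups were not tested. Of 414 olfactory receptor genes, 3 had one in WT (0.725%, 0.247 to 2.11), and the median GC content of their windows was 39.6%. Of 496 ZNF genes, 75 had one (15.1%, 12.2 to 18.5), near the 14.3% of all starts. For spliceosome genes it was 12 of 55 (21.8%, 12.9 to 34.4), for mitochondrial ribosomal proteins 11 of 78 (14.1%), for cytosolic ribosomal proteins 8 of 83 (9.64%), for DNA repair genes 6 of 58 (10.3%), for cell cycle genes 7 of 42 (16.7%), for proteasome subunits 4 of 38 (10.5%), and for aminoacyl-tRNA synthetases 1 of 35 (2.86%). The interval of each of these groups but the olfactory receptors holds 14.3%; that of the synthetases runs from 0.506 to 14.5%. CpG-rich starts made up 91.4% of the synthetase starts and 85.5% of the cytosolic ribosomal protein starts.

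Of 25 genes of the colon epithelium, 5 had one in WT (interval 8.86 to 39.1%), beside 4 of 37 genes marking other tissues (10.8%, 4.29 to 24.7) and 5 of 55 keratins (9.09%, 3.95 to 19.6), and all 3 intervals hold the 14.3% of all starts. In *ORC1Δ* cells 3 of the 5 colon origins were down, with a median log2 of -0.65, and their median GC content was 67.2%. Over all start origins 11.5% were down in *ORC1Δ* cells. Of those with 65 to 70% GC, the class that holds this median, 11.9% were down, and of those with 70% or more 27.2%. In *ORC2Δ* and *ORC5Δ* cells the medians were 0.04 and -0.20 and none was down. The AXIN2 origin, at the start of a Wnt target gene, had 281 WT and 185 *ORC1Δ* reads (-0.66, -0.94 to -0.39). KRT19, a simple epithelial keratin, had 158 and 99 reads (-0.73, -1.11 to -0.36). Among genes of other tissues SLC17A7, a glutamate transporter of neurons, had 1168 WT and 1178 *ORC1Δ* reads (-0.05), and KRT1, a keratin of skin, 78 and 123 (0.60). The origins of KRT1 and KRT9 lie wholly in exons of these genes.

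Single origins of the other lists covered a similar range. The CHEK2 and HSCB origin, near a checkpoint kinase gene, had 373 WT and 432 *ORC1Δ* reads (log2 0.15), and that of FZR1, an activator of the anaphase-promoting complex, 483 and 397 (-0.34). CCNB1, the cyclin B1 gene, had 97 WT and 48 *ORC1Δ* reads (-1.08, -1.61 to -0.56), and -0.55 and -0.20 in *ORC2Δ* and *ORC5Δ* cells. POLB, a repair polymerase gene, had -0.59, -0.52, and -0.19. SNRPD3, a core protein of the splicing snRNPs, shared an origin with GUCD1 that had 119 WT and 60 *ORC1Δ* reads (-1.05, -1.52 to -0.59). The PSMD13 and SIRT3 origin had 244 WT and 147 *ORC1Δ* reads (-0.79, -1.10 to -0.49), then -0.30 and -0.32. The RPL8 origin had 452 and 457 reads (-0.04), RPL22 137 and 100 (-0.51), PNPLA7 and MRPL41 650 and 677 (-0.002), and MRPL27 and EME1 161 and 197 (0.23). VARS1, the only synthetase start with a WT origin, had 89 and 86 (-0.11). ZNF525 was lower in each line (-0.69, -0.85, and -0.63). Of the olfactory receptors, OR4D1 had 152 WT and 135 *ORC1Δ* reads (-0.23), and OR10AC1 72 and 50 (-0.59).

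Chromosomes differed in the share of starts with an origin. In WT it was highest on chromosome 19 (27.6% of 1476 starts), chromosome 22 (22.4%), and chromosome 17 (21.8%), and lowest on chromosome 4 (6.47% of 757), chromosome 5 (7.14%), and chromosome 13 (7.43%). In *ORC1Δ* cells chromosomes 19 and 4 again had the highest and the lowest share, 24.5% and 5.94%. The median log2 of start origins in *ORC1Δ* cells was below 0 on every chromosome from 1 to 22, and lower than that of origins elsewhere on the same chromosome on each of them. Origins elsewhere stood highest in this line on chromosomes 8, 13, and 5, with medians of 0.18, 0.15, and 0.10. Start origins there had -0.13, -0.15, and -0.13. Leaving out chromosomes 2 and 6 does not remove these chromosomes, and their part in the *ORC1Δ* values was not tested.

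Origins near the edge of the window were weaker than those close to the start. In the *ORC1Δ* table, the 2257 origins reaching within 250 bp of a start had a median of 175 WT reads, 64.3% GC, and a log2 of -0.24. The 670 that reached within 500 but not 250 bp had 155.5 reads, 61.2% GC, and -0.18. The 860 just outside, reaching within 1000 but not 500 bp, had 129 reads, 58.5% GC, and -0.17, still below the -0.01 of all origins in the table.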

How the data were processed

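SNS-seq was done on HCT116 p53-/- cells (WT) and the *ORC1Δ*, *ORC2Δ*, and *ORC5Δ* lines, with 2 libraries per line (8 samples). The submitters' processing notes name Trim Galore 0.6.4, Bowtie, MACS2, bedtools, and the GRCh38 build, and origin lists hold peaks shared by both libraries of a line. The authors deposited read counts per origin in 3 tables, each of WT and 1 knockout line with 1 merged column per line. The tool that made the counts and the treatment of duplicates are not given in the sources used here. Nothing on the spread between libraries can be drawn from merged columns. PCR reads are not independent molecules, so intervals cover counting error only.

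Reads were divided by the total of the line in its table and given as RPM, and an origin was up or down at 1.5-fold in RPM. The GC trend is the running median of the log2 over 1001 origins in order of GC content. Gene starts came from GENCODE release 44. The members, gene lists, and rules were chosen with earlier results of these data known. Genes were named by rule: the starts of ORC1, ORC2, and ORC5 (none had an origin), the 5 single-promoter and 5 divergent-promoter origins with the most WT RPM, the 3 highest and 3 lowest of each kind with the same direction in all lines and a minimum of 100 reads per table, the replication genes with a WT origin, and for each other list the member with the most WT reads and the one with the largest mean absolute log2. The highest and lowest were ranked by the smallest absolute log2 of the 3 lines. On simulated Poisson counts with 200 changed origins, 98.5%, 97%, and 98.5% of 2-fold changes were called in the *ORC1Δ*, *ORC2Δ*, and *ORC5Δ* tables, and 0.630%, 0.601%, and 0.514% of unchanged origins. The simulation held no spread between libraries or cultures, so these shares are not the error rates of the calls in the data. Alternatives were scaling (edgeR 4.0.16 TMM factors in R 4.3.3, or median of ratios), a read minimum, GC trend removal, window, overlap, pair distance, threshold, origin width, and chromosomes 2 and 6 left out. Python 3.11.15, numpy 2.4.6, pandas 2.3.3, scipy 1.17.1, matplotlib 3.10.9, and samtools 1.23.1 were used.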

Additional observations from a re-analysis of the deposited data

How the results depend on the processing

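No paired analysis was possible because the tables merge the replicates of each line, and for the same reason no replicate could be left out. Of 192 alternative values for 22 results, 120 stayed near the value given, which means within the 95% interval of a median or share and within 1.5 times a count. The others moved further, and 18 medians changed sign. Medians stayed within their interval in 9 of 9 cases each with at least 200 reads, without chromosomes 2 and 6, and with the canonical transcript start, an alternative chosen after seeing the data, and in 6 of 6 with a pair distance of 500 bp. Removing the GC trend took the *ORC1Δ* medians to -0.00245 for all start origins, -0.00453 for single, and 0.012 for divergent promoters, the *ORC2Δ* medians to 0.024, 0.022, and 0.040, and the *ORC5Δ* medians to 0.00414, 0.00317, and 0.011, and left 73 origins down and 35 up in *ORC1Δ* cells. With the trend fitted on origins elsewhere only, also chosen after seeing the data, the *ORC1Δ* medians were -0.00865, -0.010, and 0.00826, the *ORC2Δ* medians 0.028, 0.028, and 0.049, and the *ORC5Δ* medians 0.00495, 0.00457, and 0.012, and 74 origins were down in *ORC1Δ* cells. TMM factors gave *ORC1Δ* medians of -0.217 for all and -0.224 for single promoters, and median-of-ratios factors -0.216 and -0.223. In *ORC2Δ* cells TMM gave 0.0011 for all, -0.0011 for single, and 0.020 for divergent promoters, and median-of-ratios factors 0.0019, -0.00023, and 0.021. These factors shift every origin of a table alike. In *ORC1Δ* cells windows of 250 and 1000 bp gave -0.243 and -0.218 for all and -0.251 and -0.221 for single promoters. Requiring the midpoint in the window gave -0.262 and -0.272 in *ORC1Δ* and -0.051 and -0.058 in *ORC2Δ* cells.

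Without chromosomes 2 and 6 the count up in *ORC2Δ* cells was 22. With at least 200 reads, which keeps fewer origins, 10 were up and 194 down in *ORC1Δ*, 13 and 37 in *ORC2Δ*, and 5 and 4 in *ORC5Δ* cells. At 2-fold these were 10 and 37, 6 and 3, and 1 and 1. With a window of 1000 bp 48, 54, and 24 origins were up, with 250 bp 10 in *ORC1Δ* and 15 in *ORC2Δ* cells, and with the midpoint in the window 9, 13, and 7. The midpoint rule took the number of start origins to 1948, 2177, and 2209. The share of single starts with a WT origin was 10.7% with 250 bp, 17.2% with 1000 bp, 9.22% by midpoint, 9.36% with only WT origins at least as wide as the median, and 15.2% with canonical starts. For divergent starts it was 14.2%, 21.4%, 12.9%, and 12.4% under the first 4 of these, above single starts in each. The median of WT reads at single promoters was 160 with 1000 bp and 156 by midpoint. The cause of these shifts was not tested. Depth limits what can be read from single origins: few reads give wide intervals, as at VANGL1.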
